A study of Mus musculus with 10 samples.

Results

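The 10 genes described here encode the MHC class II chains, the invariant chain and the proteins that load, edit or switch on class II. They were Cd74, H2-Aa, H2-Ab1, H2-Eb1, Ciita, H2-DMa, H2-DMb1, H2-DMb2, H2-Oa and H2-Ob, 10 of 24453 gene symbols in the deposited table. They were chosen by name. RNA came from microglia, the macrophages that live in the brain tissue, isolated with magnetic beads from brains of untreated mice of the strain C57bl6. The ageing comparison has 3 libraries of 15-month-old animals, called aged, and 3 libraries of 10-week-old animals, called young. The other comparison has 2 libraries labelled Rab7 deltaMG and 2 with the label Rab7 control, all from 3-month-old animals. The series calls the deltaMG animals null mutants for Rab7, which encodes a GTPase that directs traffic of late endosomes; the labels do not give the allele or the driver of the deletion. Nothing in the labels states that replicates are separate animals. The p-values therefore measure only the spread of these libraries, and some of it may be technical.

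MHC class II molecules are pairs of an alpha and a beta chain that show peptides from endosomes to CD4+ T cells. The invariant chain, encoded by Cd74, occupies the peptide groove of new molecules and guides them to endosomes, where proteases cut it away. The DM heterodimer then exchanges the remaining fragment for other peptides, and the DO heterodimer restrains DM. Ciita encodes the coactivator that drives transcription of these genes from a shared set of promoter boxes. Resting microglia are known for low class II levels, while macrophages at the borders of the brain, monocyte-derived cells and dendritic cells can carry more.

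The unit was taken as RPM, reads divided by a library total and put on a common scale, which the sources do not state. On that reading the totals, inferred from the values, were 6098270 to 9907459 reads. Between 1284408 and 1855047 of a library's reads then fell in the genes of the table. Rab7 did not check the labels, with 72.2 and 79.4 RPM in the libraries labelled deltaMG and 64.2 and 67.5 RPM in those labelled control. Each direction in that comparison therefore rests on the labels. Xist, expressed from the inactive X chromosome of females, was at 0.127 to 0.940 RPM in aged libraries, 1715 to 1771 RPM in young libraries, 1171 to 1562 RPM in those labelled deltaMG and 924 to 1410 RPM in those labelled control. Summed Y-linked genes were at 35.7 to 48.7 RPM in aged libraries, at most 0.288 RPM in young libraries, 9.11 to 20.3 RPM in those labelled deltaMG and 19.3 to 25.8 RPM in those labelled control. Age and sex therefore cannot be told apart in the ageing comparison. Each library of the other comparison had both Xist and Y-linked RNA, in amounts that varied between libraries. The part of sex in that comparison was not tested.

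Of the members, 8 lie in the MHC region of chromosome 17 (GRCm38, GENCODE M21), from H2-Oa (34092340 to 34095234, plus strand) through H2-DMa, H2-DMb2, H2-DMb1, H2-Ob, H2-Ab1 (34257689 to 34269419, plus strand) and H2-Aa (34282744 to 34287823, minus strand) to H2-Eb1 (34305867 to 34316674, plus strand).

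Promoter windows of 300 bases, from RefSeq for GRCm38.p6, covered 250 bases before and 50 bases after the start site. H2-Ab1 and Ciita had no window, and the gene of the invariant chain was left out of the search. Windows of the remaining 7 of the 10 members were searched for letters of the boxes that class II promoters are known to share. These were TGATTGG, the core of the Y box bound by NF-Y, and AACNNATG, from the X box bound by the RFX complex. The third was TGACGTCA, the X2 box bound by CREB. The letters were chosen with these promoters in view. The following 60-base stretches are shown because they carry those boxes in genes that behaved differently in the libraries; capitals mark the boxes found.
H2-Aa (chr17:34287862-34287921, minus strand): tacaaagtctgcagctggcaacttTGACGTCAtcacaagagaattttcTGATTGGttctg
H2-Eb1 (chr17:34305758-34305817, plus strand): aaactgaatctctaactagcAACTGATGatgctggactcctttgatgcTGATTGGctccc
H2-DMb1 (chr17:34153080-34153139, plus strand): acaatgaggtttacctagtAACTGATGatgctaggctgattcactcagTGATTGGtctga
H2-DMb2 (chr17:34145109-34145168, plus strand): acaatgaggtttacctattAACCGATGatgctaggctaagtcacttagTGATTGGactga
H2-Ob (chr17:34238798-34238857, plus strand): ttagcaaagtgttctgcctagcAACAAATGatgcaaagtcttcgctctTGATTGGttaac
H2-Oa (chr17:34092286-34092345, plus strand): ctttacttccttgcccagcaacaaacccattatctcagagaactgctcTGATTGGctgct

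The Y box core stood in windows of 6 of the 7 members searched, and on either strand it is in 7.82% of 32851 promoter windows. Its first base lay 45 bases before the start site in H2-Oa and 92 bases before it in H2-DMb2, with the other 4 genes between. The X box core followed by the Y box core on the sense strand, with at most 40 bases between them, occurred in 4 members, H2-Eb1, H2-DMb1, H2-DMb2 and H2-Ob. That order was present in 14 of the 32851 windows, or 0.0426%. The bases between the boxes numbered 18 in H2-Ob, 20 in H2-Eb1 and 21 in both H2-DMb genes. Of the members searched, H2-Aa was the one whose window held the X2 box, which is in 1.79% of all windows. Both windows of H2-DMa held neither the X core nor the Y core. A match is a stretch of letters and says nothing of binding in these cells.

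The first question was how class II transcripts differed between aged and young microglia. The invariant chain and the chains of the classical molecule I-A were higher in aged libraries, by about 3-fold. Cd74 rose 3.27-fold, H2-Ab1, the I-A beta chain, rose 3.32-fold and H2-Aa, the I-A alpha chain, rose 3.08-fold. These 3 were the members called among 6 that passed a minimum of 10 RPM in at least 2 libraries, and none was called lower. Of all 4151 tested genes, limma called 6.14% at an adjusted p under 0.05, 3.16% higher and 2.99% lower. Folds come from log2(RPM + 1), a scale on which low genes change less than they should. In bulk RNA, fewer cells of a type and less RNA per cell cannot be told apart.

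Cd74 lies on chromosome 18 (60803848 to 60812652, plus strand, GRCm38). It was at 105, 70.1 and 139 RPM in aged replicates 1 to 3, against 31.7, 38.0 and 22.7 RPM in young replicates 1 to 3. Each aged library was above each young library, and the lowest aged value was replicate 2. Limma put the log2 change at 1.71 ± 0.22 (SE), with an adjusted p of 0.000463. Behind these values were 671 to 1093 Cd74 reads in aged and 158 to 232 in young libraries.

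H2-Aa was at 47.9, 27.8 and 48.6 RPM in aged libraries, against 9.14, 17.2 and 11.9 RPM in young libraries. The groups did not overlap, and aged replicate 2 was again the lowest of its group. On the log2 scale the change was 1.62 ± 0.23 (SE, limma adjusted p = 0.000958). H2-Ab1 was at 68.1, 28.8 and 73.1 RPM in aged libraries, against 15.1, 18.0 and 12.5 RPM in young libraries. Its groups did not overlap either, and in the aged group replicate 2 was far below the other two. In the limma fit it differed by 1.73 ± 0.27 on the log2 scale (SE, adjusted p = 0.00185).

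H2-Eb1, the beta chain of I-E, was at 9.71, 4.24 and 12.8 RPM in aged libraries, against 2.52, 5.41 and 2.45 RPM in young libraries. Aged replicate 2 lay below young replicate 2, so the groups overlapped. The log2 fold change was 1.11 ± 0.36 (SE), and the limma adjusted p of 0.0862 missed the threshold. Without aged replicate 2 the log2 fold change was 1.51 (limma adjusted p = 0.0104.) The I-E alpha chain is a pseudogene in this strain background, and H2-Ea-ps was listed at 0 in all 10 libraries. H2-Eb2, another beta chain gene of the region, did not exceed 0.157 RPM.

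**Figure D1:**
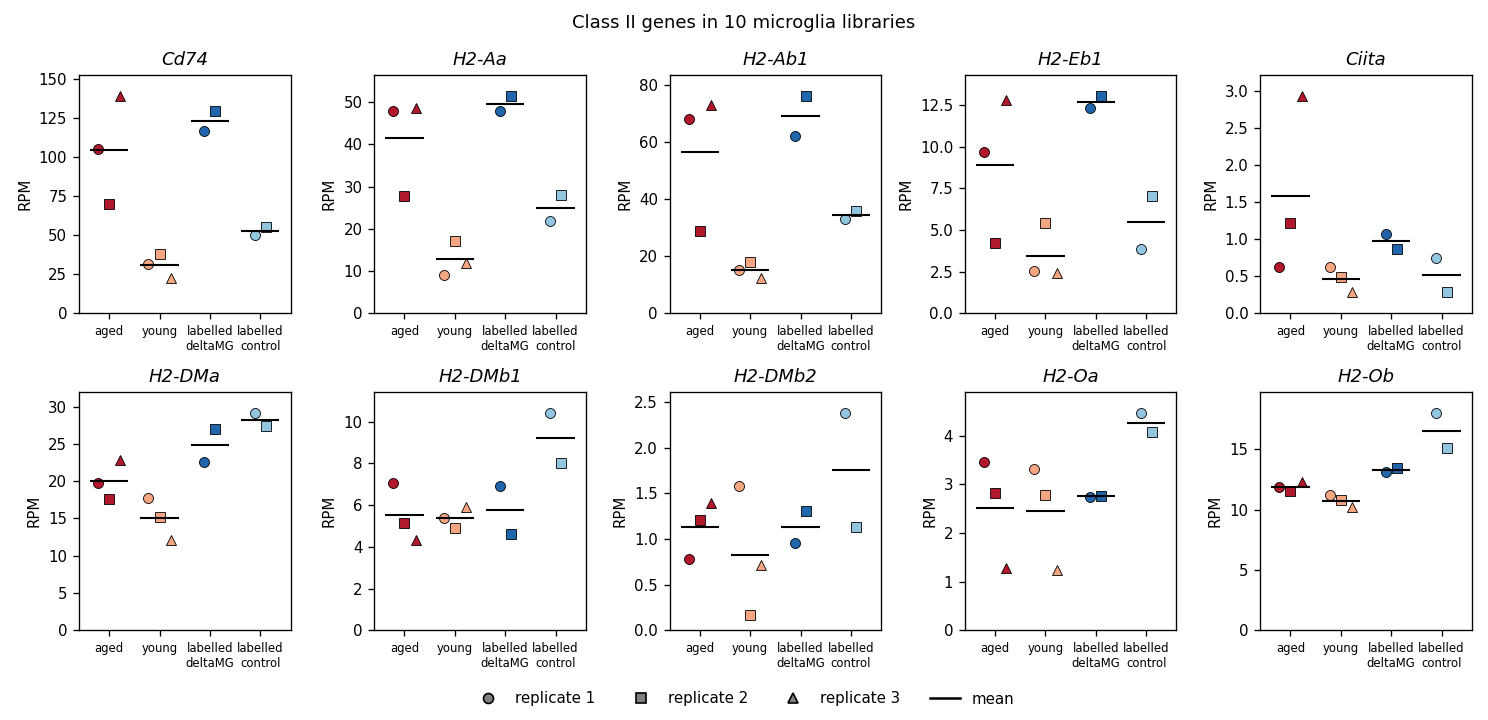
RPM of each of the 10 class II genes in every library, 1 panel per gene with its own linear axis from 0; points are libraries, marker shapes are replicate numbers and lines are group means. For Cd74, H2-Aa and H2-Ab1 every aged point is above every young point, and for H2-DMa, H2-DMb1, H2-Oa and H2-Ob both points of the libraries labelled control are above those labelled deltaMG.

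Ciita, the coactivator gene on chromosome 16 (10480059 to 10528418, plus strand), was near the limit of these libraries. It had 4, 12 and 23 reads in aged libraries, against 4, 3 and 2 reads in young libraries. In RPM these were 0.627, 1.21 and 2.92 in aged libraries and 0.630, 0.492 and 0.288 in young libraries. Only replicate 1 of the aged group fell within the young range. The pooled level was 1.61 RPM in aged libraries (exact Poisson 95% interval 1.15 to 2.21) and 0.464 RPM in young libraries (0.212 to 0.881), and these intervals cover counting error only. In a fit with a minimum of 1 RPM, over 10800 genes, the log2 fold change was 0.72 ± 0.31 (SE, limma adjusted p = 0.235.)

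The genes of the peptide editors did not pass the test in aged libraries. H2-DMa, the DM alpha chain, was at 19.7, 17.7 and 22.9 RPM in aged libraries, against 17.8, 15.3 and 12.1 RPM in young libraries. The ranges overlapped slightly, and the log2 fold change was 0.40 ± 0.17 (SE, limma adjusted p = 0.173.) H2-Ob, the DO beta chain, was at 11.9, 11.5 and 12.3 RPM in aged libraries, against 11.2, 10.8 and 10.2 RPM in young libraries. Its ranges did not overlap, but the difference was small, a log2 fold change of 0.14 (limma adjusted p = 0.684) and a 95% interval from -0.20 to 0.47.

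The other 3 members were tested at the minimum of 1 RPM, where limma called 3.44% of all genes. H2-DMb1, a DM beta chain, was at 7.05, 5.15 and 4.32 RPM in aged libraries and at 5.36, 4.92 and 5.90 RPM in young libraries. H2-DMb2, the other DM beta chain, stayed within 0.783 to 1.40 RPM in aged libraries and 0.164 to 1.58 RPM in young libraries. H2-Oa, the DO alpha chain, was at 3.45, 2.83 and 1.27 RPM in aged libraries and at 3.31, 2.79 and 1.24 RPM in young libraries. All 3 genes overlapped between the groups, with log2 fold changes of 0.01, 0.29 and 0.03 in that order and limma adjusted p values of 0.992, 0.715 and 0.979. The 95% interval of H2-DMb1 ran from -0.48 to 0.49. Transcripts of H2-DMb1 and H2-DMb2 were 95.4% identical over 848 bases, so the split of reads between them is uncertain.

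Over all 10 members in the fit with a minimum of 1 RPM, the median log2 fold change was 0.56, beside -0.02 over the 10800 tested genes. No overlap between aged and young ranges was seen for 4 members, Cd74, H2-Aa, H2-Ab1 and H2-Ob, all higher in aged libraries. Over all genes at that minimum this was so for 19.5%, 8.60% with the aged range higher.

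The second question was how class II transcripts differed between the libraries labelled deltaMG and labelled control. Cd74 was 2.31-fold higher in the libraries labelled deltaMG, and it was the single member called. The I-A and I-E chains had log2 fold changes of about 1 and did not pass the test. The DM and DO genes pointed the other way, with negative log2 fold changes that did not pass the test either. Limma called 3.78% of the 4151 genes in this comparison, 1.20% higher and 2.58% lower.

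Cd74 was at 117 and 129 RPM in the libraries labelled deltaMG, against 50.4 and 55.1 RPM in those labelled control. Both libraries labelled deltaMG were above both labelled control. The change came to 1.21 ± 0.26 in log2 units (SE, limma adjusted p = 0.0193). The call was lost when any of these 4 libraries was left out, with limma adjusted p values of 0.0999 to 0.205 and log2 fold changes of 1.13 to 1.28.

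H2-Aa was at 47.9 and 51.4 RPM in the libraries labelled deltaMG, against 22.0 and 28.1 RPM in those labelled control. Limma put the log2 change at 0.97 ± 0.28 (SE), with an adjusted p of 0.0718. H2-Ab1 was at 62.1 and 76.1 RPM in the libraries labelled deltaMG, against 33.0 and 36.0 RPM in those labelled control. On the log2 scale the change was 0.98 ± 0.32 (SE, limma adjusted p = 0.113). H2-Eb1 was at 12.3 and 13.02 RPM in the libraries labelled deltaMG, against 3.86 and 7.05 RPM in those labelled control, and its limma adjusted p was 0.176 at a log2 fold change of 1.13. None of the 3 overlapped between the groups. When these 4 libraries were fitted without the ageing libraries, all 4 of Cd74, H2-Aa, H2-Ab1 and H2-Eb1 were called, and limma then called 510 genes in place of 157.

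Ciita had 9 and 6 reads in the libraries labelled deltaMG, against 5 and 2 reads in those labelled control, a log2 fold change of 0.40 (limma adjusted p = 0.746) at the minimum of 1 RPM, where 1.69% of all genes were called. H2-DMa was at 22.6 and 27.1 RPM in the libraries labelled deltaMG, against 29.1 and 27.4 RPM in those labelled control. H2-Ob was at 13.1 and 13.5 RPM in the libraries labelled deltaMG, against 18.0 and 15.1 RPM in those labelled control. For both genes the libraries labelled deltaMG were the lower ones, with log2 fold changes of -0.18 and -0.29 and limma adjusted p values of 0.699 and 0.465.

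H2-DMb1 was at 6.93 and 4.63 RPM in the libraries labelled deltaMG, against 10.4 and 8.04 RPM in those labelled control. H2-Oa was at 2.75 RPM in both libraries labelled deltaMG, against 4.46 and 4.08 RPM in those labelled control. At the minimum of 1 RPM their log2 fold changes were -0.60 and -0.49, with limma adjusted p values of 0.379 and 0.655. H2-DMb2, at 0.956 and 1.30 RPM in the libraries labelled deltaMG and 2.38 and 1.13 RPM in those labelled control, overlapped between the groups.

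In 9 of the 10 members there was no overlap of ranges, with 5 ranges above and 4 below those of the libraries labelled control. The 5 were Cd74, H2-Aa, H2-Ab1, H2-Eb1 and Ciita, and the 4 were H2-DMa, H2-DMb1, H2-Oa and H2-Ob. Of all 10800 genes at the minimum of 1 RPM, 45.5% did not overlap, 22.8% with the libraries labelled deltaMG higher, so non-overlap of 2 against 2 libraries was common. The members' median log2 fold change in that fit was 0.11, with 5 positive and 5 negative values.

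**Figure D2:**
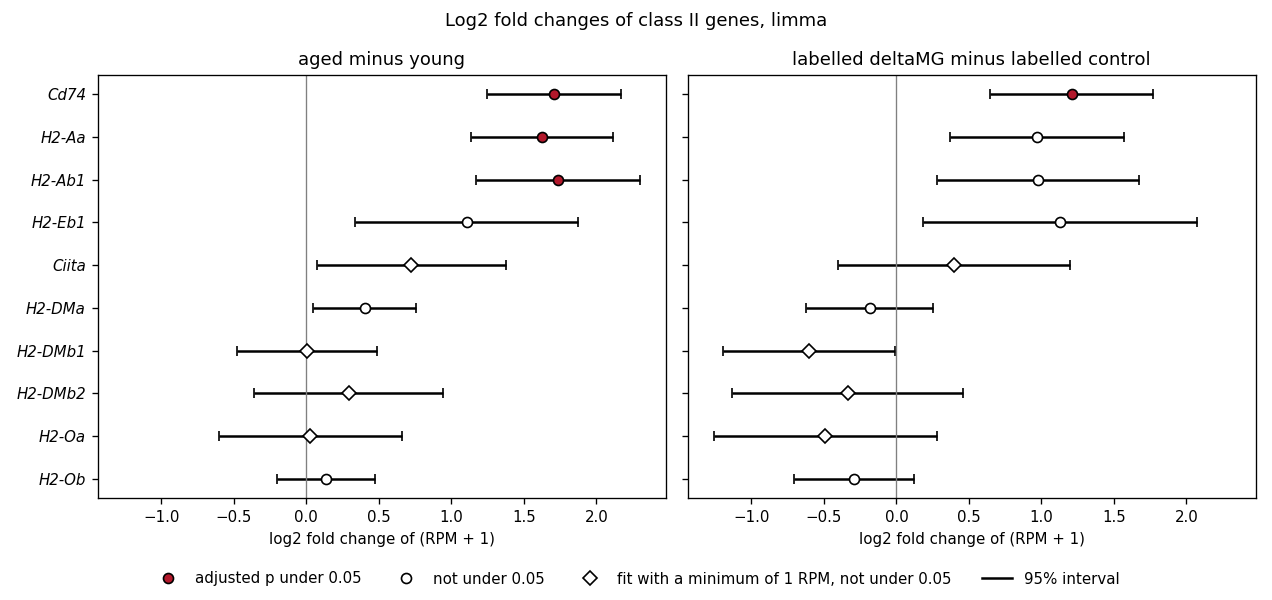
Log2 fold changes of RPM + 1 for the 10 class II genes in the 2 comparisons, with 95% intervals from limma; filled points have an adjusted p under 0.05 and diamonds are genes tested at a minimum of 1 RPM. Cd74, H2-Aa and H2-Ab1 lie at 1.62 to 1.73 in aged minus young, and in the other panel Cd74 lies at 1.21 while the DM and DO genes lie at or below -0.18.

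The change between aged and young libraries was tested against that between the libraries labelled deltaMG and control. No member passed that test by limma, while 4.79% of all genes did, and 759 genes had an unadjusted p under 0.05. The aged minus young change exceeded the other by 0.50 for Cd74, 0.65 for H2-Aa and 0.76 for H2-Ab1 on the log2 scale, with limma adjusted p values of 0.490, 0.379 and 0.379. Without aged replicate 2 the difference for H2-Ab1 was 1.18 with a limma adjusted p of 0.00955. H2-DMa had a difference of 0.59 with an unadjusted p of 0.0422 and a limma adjusted p of 0.251.

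Levels are compared between genes as RPM per kilobase of exons of protein-coding transcripts. In aged libraries Cd74 was at 73.9, H2-Ab1 at 46.8 and H2-Aa at 36.7 RPM per kilobase. H2-DMa followed at 7.53, H2-Eb1 at 4.97, H2-DMb1 at 3.92, H2-Ob at 3.39 and H2-Oa at 2.31, with H2-DMb2 at 0.647 and Ciita at 0.192 RPM per kilobase. In young libraries Cd74 was at 21.8, H2-Ab1 at 12.6 and H2-Aa at 11.3 RPM per kilobase, again ahead of H2-DMa at 5.64. There H2-DMb1, at 3.84 RPM per kilobase, and H2-Ob, at 3.06, stood above H2-Eb1, at 1.93. H2-DMa was thus nearer in level to the I-A chains in young than in aged libraries.

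Set in order of group means over all 4 groups, Cd74 averaged 123 RPM in libraries labelled deltaMG, 105 RPM in aged libraries, 52.8 RPM in libraries labelled control and 30.8 RPM in young libraries. H2-Aa, H2-Ab1 and H2-Eb1 had the same order of groups. For Cd74 only the first pair of neighbours overlapped, and for H2-Eb1 all neighbours did. For H2-Aa and H2-Ab1 the aged range also reached down into that of the libraries labelled control, because of aged replicate 2. H2-Ob had another order, with 16.5 RPM in libraries labelled control, 13.3 RPM in those labelled deltaMG, 11.9 RPM in aged and 10.7 RPM in young libraries, and no neighbours overlapped. H2-DMa, H2-DMb1 and H2-Oa also had the libraries labelled control first. Libraries labelled control thus had more of all 10 class II transcripts, by group mean, than young libraries. For Ciita, with a handful of reads, these means were 0.513 and 0.470 RPM. The ranges of H2-Eb1, Ciita and H2-DMb2 overlapped between these groups. That pair was not tested, since the groups differ in age, in Xist and in experiment.

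The members' proportions were compared within each library, which removes the scaling of the library. Cd74 over H2-Aa was 2.19, 2.53 and 2.85 in aged libraries, against 3.47, 2.21 and 1.90 in young libraries. It was 2.44 and 2.52 in the libraries labelled deltaMG, against 2.29 and 1.96 in those labelled control. Cd74 and H2-Aa thus kept a ratio of 1.90 to 3.47 in all 10 libraries, while Cd74 itself spanned a 6.10-fold range. Cd74 over H2-Ab1 lay between 1.53 and 2.44 in all libraries.

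The ratio of Cd74 to H2-DMa behaved differently. It was 5.33, 3.97 and 6.07 in aged libraries, against 1.78, 2.49 and 1.88 in young libraries. It was 5.17 and 4.79 in the libraries labelled deltaMG, against 1.73 and 2.02 in those labelled control. Groups did not overlap in either comparison. An exact permutation test cannot go below 0.1 with 3 against 3 libraries or below 0.333 with 2 against 2 libraries, two-sided, so no p under 0.05 could be had. H2-DMa shares 360 of its 3448 exonic bases with Brd2 on the opposite strand. No strand setting is given in the sources used here, so some H2-DMa reads may belong to Brd2. Likewise H2-Oa shares 321 of its 1407 exonic bases with BC051537, and Ciita 329 of 9535 with Dexi.

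**Figure D3:**
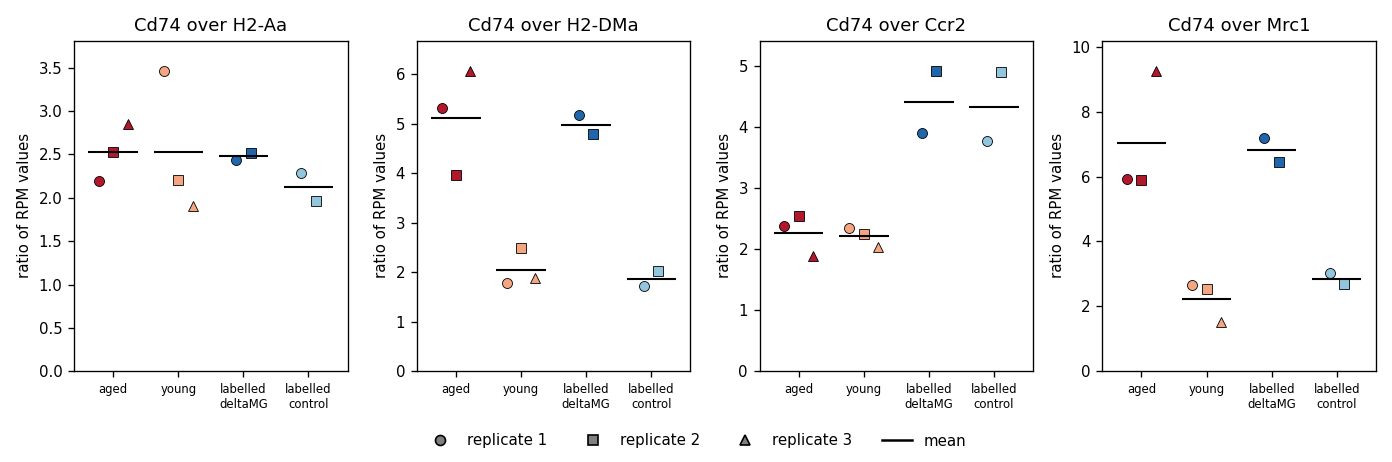
Ratios of Cd74 to H2-Aa, H2-DMa, Ccr2 and Mrc1 within each library, from RPM values on linear axes from 0; points are libraries, shapes are replicate numbers and lines are group means. Cd74 over H2-DMa and Cd74 over Mrc1 separate aged from young libraries and labelled deltaMG from labelled control, while Cd74 over Ccr2 overlaps within each comparison. Cd74 over H2-Aa overlaps between aged and young libraries, and its values of 2.44 and 2.52 in libraries labelled deltaMG are above the 2.29 and 1.96 in those labelled control.

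Class II genes were then set beside markers of the cells other than microglia that carry class II. Mrc1 and Pf4 mark macrophages at the borders of the brain, and Ccr2 encodes the chemokine receptor of inflammatory monocytes. Mrc1 was at 17.7, 11.9 and 15.0 RPM in aged libraries, against 11.98, 14.9 and 15.0 RPM in young libraries. It was at 16.2 and 20.1 RPM in the libraries labelled deltaMG, against 16.6 and 20.6 RPM in those labelled control. Its groups overlapped in both comparisons, with log2 fold changes of 0.08 and -0.03 and limma adjusted p values of 0.865 and 0.964.

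Pf4 had 0.508 to 1.88 RPM in aged libraries, against 0.432 to 0.984 RPM in young libraries. It had 2.51 and 2.60 RPM in the libraries labelled deltaMG, against 0.594 and 2.12 RPM in those labelled control. The pooled level was 0.910 RPM in aged libraries (exact Poisson 95% interval 0.571 to 1.38) and 0.619 RPM in young libraries (0.320 to 1.08), so no difference was detectable at this depth. The aged library with the most Cd74, replicate 3, had the least Pf4 of its group.

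Ccr2 was at 44.2, 27.6 and 73.9 RPM in aged libraries, against 13.6, 16.9 and 11.2 RPM in young libraries. Aged libraries were all above young libraries, and the log2 fold change was 1.64 ± 0.26 (SE, limma adjusted p = 0.00256.) It was at 30.0 and 26.3 RPM in the libraries labelled deltaMG, against 13.4 and 11.3 RPM in those labelled control, a log2 fold change of 1.13 (limma adjusted p = 0.0677.) Within the aged group Ccr2 and Cd74 had the same order of libraries, replicate 3 above 1 above 2. They also shared their order in the young group, replicate 2 above 1 above 3. In the groups labelled deltaMG and control, replicate 1 had more Ccr2 and replicate 2 more Cd74.

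For both Cd74 and Ccr2 the libraries fell into separate sets that are the groups themselves, aged with labelled deltaMG above young with labelled control. The relation of Cd74 to Ccr2 over the libraries was put to a permutation test, which cannot separate it from these group differences. Its p is therefore not given, and no group is large enough for a test within it. Cd74 over Ccr2 was 2.38, 2.55 and 1.88 in aged libraries, against 2.34, 2.25 and 2.03 in young libraries. It was 3.90 and 4.92 in the libraries labelled deltaMG, against 3.77 and 4.89 in those labelled control. The ratio thus overlapped within each comparison and did not overlap between the ageing libraries and the other 4. Cd74 over Mrc1 averaged 7.03 ± 1.93 in aged and 2.24 ± 0.62 in young libraries (SD, n = 3 each). It averaged 6.82 ± 0.53 in libraries labelled deltaMG and 2.85 ± 0.25 in those labelled control (SD, n = 2 each).

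**Figure D4:**
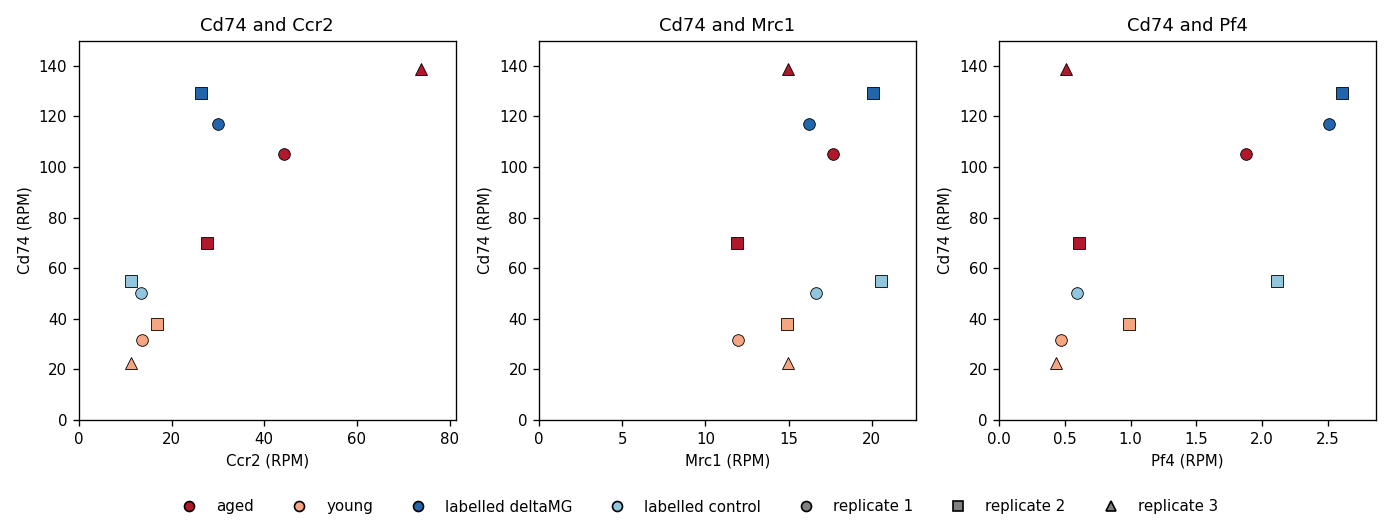
Cd74 against Ccr2, Mrc1 and Pf4 in the 10 libraries, all in RPM on linear axes from 0; colours are groups and shapes are replicate numbers. Aged libraries and those labelled deltaMG have more Cd74 than the others and Ccr2 at 26.3 RPM or above, against 16.9 RPM or below. Inside each of these 2 sets the libraries stand in different orders for Cd74 and Ccr2. Mrc1 covers 11.9 to 20.6 RPM with no such separation.

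With Ccr2 as a covariate no class II gene was called in either comparison. In that fit the log2 fold change in aged libraries was 0.52 for Cd74, 0.72 for H2-Aa and 0.32 for H2-Ab1, with limma adjusted p values of 0.443, 0.427 and 0.743. Ccr2 differs between the groups, and in aged libraries the fit called 28 genes in all in place of 255, with a median over all genes of -0.25. In the libraries labelled deltaMG it called 140 genes in place of 157, with a median over all genes of -0.17. For Cd74 there it gave 0.39 with a limma adjusted p of 0.410. With the mean of Mrc1 and Pf4 as a covariate, the 3 class II genes were called in aged libraries, and Cd74 missed the threshold in the libraries labelled deltaMG with a limma adjusted p of 0.0996 at a log2 fold change of 1.09.

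Whole marker lists were summed in each library. The 8 monocyte genes summed to 184 to 776 RPM in aged libraries, against 78.9 to 198 RPM in young libraries. They summed to 166 to 221 RPM in the libraries labelled deltaMG, against 59.8 to 94.9 RPM in those labelled control. Of 6 tested, 4 were called higher in aged libraries, Ccr2, Fn1, Itga4 and Vcan, beside 3.16% of all tested genes. None was called in the other comparison, where 3.78% of all tested genes were. Ccr2 and Vcan stayed called with any 1 library left out, and Fn1 and Itga4 did not. The 11 border macrophage genes summed to 64.2 to 111 RPM in aged libraries, against 57.3 to 69.4 RPM in young libraries. Only 3 of them reached the minimum and were tested. F13a1, which monocytes also carry, was the one called in aged libraries, and without young replicate 3 its limma adjusted p was 0.0511. The 11 genes summed to 83.9 to 91.5 RPM in the libraries labelled deltaMG, against 62.2 to 73.0 RPM in those labelled control. Without F13a1, a gene left out after its values were seen, the other 10 summed to 48.7 to 54.8 RPM in aged libraries, against 51.9 to 60.5 RPM in young libraries. They summed to 65.2 to 75.3 RPM in libraries labelled deltaMG, against 49.0 to 60.2 RPM in those labelled control. That last gap rests largely on Stab1, which averaged 36.7 RPM in libraries labelled deltaMG and 22.9 RPM in those labelled control. Its log2 fold change was 0.65 (limma adjusted p = 0.0627). Mrc1, Cd163, Folr2 and Clec10a had lower means in libraries labelled deltaMG, and the remaining genes of the list had higher ones.

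The 9 dendritic cell genes summed to 20.9 to 26.8 RPM in aged libraries, against 19.3 to 21.5 RPM in young libraries. They summed to 22.9 to 25.7 RPM in the libraries labelled deltaMG, against 33.8 to 38.3 RPM in those labelled control. Of these 9 genes only 2 reached the minimum and were tested, and Itgax was the one called. It encodes the integrin CD11c and is also carried by activated microglia. In aged libraries it was higher at a log2 fold change of 0.99 (limma adjusted p = 0.0496). That call was lost without aged replicate 1 or 3 or any young replicate (limma adjusted p = 0.0857 to 0.165). Itgax was lower in the libraries labelled deltaMG at a log2 fold change of -2.13 (limma adjusted p = 0.0022), the opposite side from Cd74, and without replicate 1 of those labelled control the adjusted p was 0.0605. Without Itgax, again chosen after its values were seen, the other 8 dendritic cell genes summed to 20.2 and 21.7 RPM in libraries labelled deltaMG, against 19.5 and 16.6 RPM in those labelled control. In aged libraries these 8 came to 16.9 to 19.9 RPM, against 17.0 to 19.2 RPM in young libraries. B cell genes summed to at most 3.17 RPM in any library, with 6 of 7 never at 1 RPM, and T cell genes to at most 1.80 RPM, with Cd3g listed at 0 throughout.

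Neutrophil markers, 11 genes, added up to 929 to 4141 RPM in aged libraries, against 530 to 1350 RPM in young libraries, and to 1131 to 1733 RPM in libraries labelled deltaMG, against 439 to 662 RPM in those labelled control. Of 10 tested, Cxcr2, a chemokine receptor of neutrophils, was the one called, higher in both comparisons, beside 3.16% and 1.20% of all tested genes. Its log2 fold change was 1.60 in aged libraries (limma adjusted p = 0.0206), and without young replicate 1 or 3 the adjusted p was 0.0757 or 0.0723. In the libraries labelled deltaMG it was 2.21 (limma adjusted p = 0.0117), and without any 1 of those 4 libraries the adjusted p was 0.0505 to 0.159. The 7 microglia genes summed to 3030 to 3420 RPM in aged libraries, against 4702 to 5111 RPM in young libraries. They summed to 3983 to 5089 RPM in libraries labelled deltaMG, against 4188 to 4501 RPM in those labelled control. Microglia markers were thus high in every library, and 5 of the 7 were called lower in aged libraries, beside 2.99% of all tested genes. Without young replicate 1 P2ry12 alone of these stayed called. Cx3cr1, the fractalkine receptor of microglia, was at 965 and 1285 RPM in libraries labelled deltaMG, against 398 and 437 RPM in those labelled control. The log2 fold change was 1.41 (limma adjusted p = 0.000158). Aged libraries had 689 to 741 RPM and young libraries 1068 to 1174 RPM, so those labelled control were the lowest. The part of these marker lists in the class II differences, other than the covariate fits above, was not tested.

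The rest of the class II pathway did not follow the I-A chains. Of 27 listed genes 26 were in the table and 18 were tested. In aged libraries 1 was called higher and none lower, and in the libraries labelled deltaMG 1 was called higher and 4 lower. Over all tested genes, 3.16% were called higher and 2.99% lower in aged libraries. For the libraries labelled deltaMG these shares were 1.20% and 2.58%. The list's median log2 fold change was -0.01 in aged libraries, beside -0.05 over all genes, and -0.20 in the libraries labelled deltaMG, beside -0.02 over all genes.

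The 4 called lower in the libraries labelled deltaMG are endosomal proteases. For each of the 4, both libraries labelled control stood above all other libraries, the aged and young ones included. Ctss encodes cathepsin S, which makes the last cuts in the invariant chain. It was at 505 and 666 RPM in the libraries labelled deltaMG, against 1947 and 1219 RPM in those labelled control. In the limma fit it differed by -1.41 ± 0.21 on the log2 scale (SE, adjusted p = 0.00169). Ctsl, for cathepsin L, was at 146 and 180 RPM in the libraries labelled deltaMG, against 460 and 322 RPM in those labelled control.

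Ctsb, for cathepsin B, was at 317 and 403 RPM in the libraries labelled deltaMG, against 745 and 661 RPM in those labelled control. The limma adjusted p was 0.00169 for both, with log2 fold changes of -1.24 for Ctsl and -0.97 for Ctsb. Ctsd, for the aspartic protease cathepsin D, had a log2 fold change of -0.94 (limma adjusted p = 0.0194.) Leaving out replicate 1 of the libraries labelled control gave a limma adjusted p of 0.0537 for Ctss, Ctsl and Ctsb, and of 0.147 for Ctsd. Cd74 and the proteases therefore stood on opposite sides in this comparison.

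In aged libraries the same proteases had small differences that did not pass the test. Ctss was at 663, 521 and 595 RPM in aged libraries, against 562, 454 and 563 RPM in young libraries, a log2 fold change of 0.17 (limma adjusted p = 0.640.) The aged minus young difference exceeded that between the libraries labelled deltaMG and control by 1.58 for Ctss, 1.39 for Ctsl and 1.12 for Ctsb on the log2 scale, with limma adjusted p values of 0.00352, 0.00335 and 0.00316. Lgmn, for the asparaginyl endopeptidase that starts the cutting of the invariant chain, averaged 123 ± 21.0 RPM in aged and 184 ± 39.1 RPM in young libraries (SD, n = 3 each). Its log2 fold change of -0.57 had a limma adjusted p of 0.0732.

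Ifi30 encodes the thiol reductase GILT, which opens disulphide bonds of antigens in endosomes. It was at 9.87, 12.1 and 11.7 RPM in aged libraries, against 7.09, 5.74 and 5.90 RPM in young libraries. The change came to 0.75 ± 0.19 in log2 units (SE, limma adjusted p = 0.033). The call was near the threshold and was lost in 12 of 21 alternative fits. Leaving out aged replicate 2 or 3 or any young replicate gave adjusted p values of 0.0562 to 0.0892. Leaving out either library labelled control, which enter the fit only through its shared spread, gave 0.0504 and 0.0521.

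**Figure D5:**
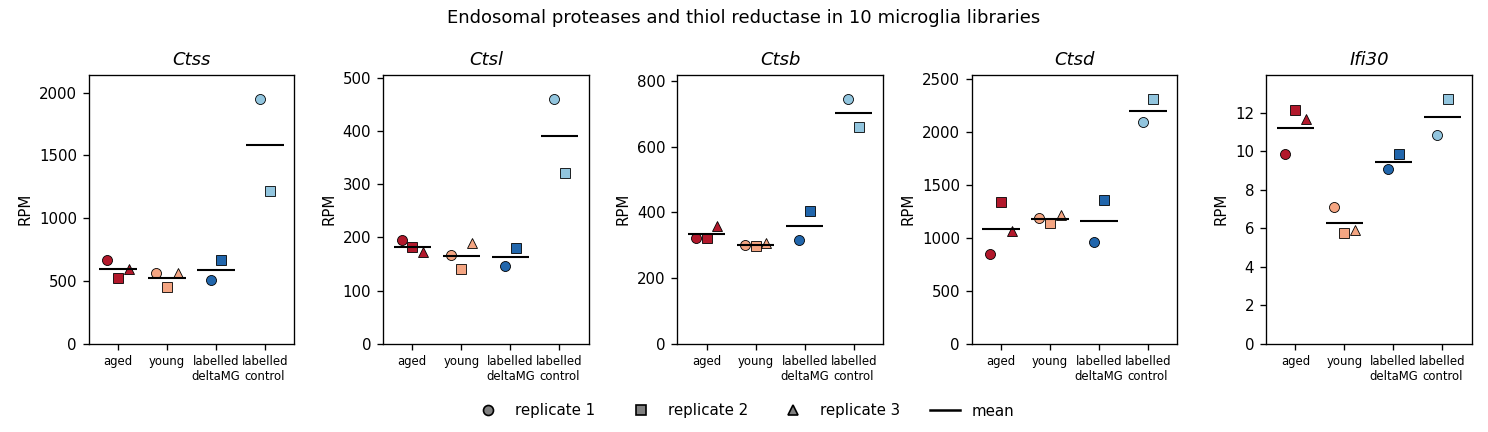
RPM of the proteases Ctss, Ctsl, Ctsb and Ctsd and of the thiol reductase gene Ifi30 in every library, each panel with a linear axis from 0; points are libraries, shapes are replicate numbers and lines are group means. Both libraries labelled control stand above the other 8 for the 4 proteases, while Ifi30 is lowest in young libraries.

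Interferon gamma is the classical inducer of Ciita. Ifngr1, the ligand-binding chain of its receptor, was at 96.1 and 119 RPM in the libraries labelled deltaMG, against 69.5 and 68.1 RPM in those labelled control. The log2 fold change was 0.63 (limma adjusted p = 0.033), and the call was lost without the library labelled deltaMG replicate 2 or either library labelled control (adjusted p = 0.203, 0.205 and 0.164 by limma). In aged libraries it was at 66.7, 74.7 and 71.7 RPM, against 102.9, 88.2 and 90.4 RPM in young libraries. The log2 fold change there was -0.39 with a limma adjusted p of 0.0719. The aged minus young change less that between the libraries labelled deltaMG and control was -1.03 (limma adjusted p = 0.00581). Ifngr2, Jak1 and Jak2, of the same path, were called in neither comparison.

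The genes of the promoter complex that binds the X and Y boxes were not called in either comparison. Nfya, a subunit of NF-Y, had log2 fold changes of 0.05 in aged libraries and -0.01 in the libraries labelled deltaMG, with limma adjusted p values of 0.918 and 0.993. Of its 7 listed genes, 3 were tested, Nfya, Rfx5 and Creb1. March1 and March8 encode ligases that mark class II for removal from the surface. March1 had a log2 fold change of -0.09 in aged libraries and 0.42 in the libraries labelled deltaMG, with limma adjusted p values of 0.770 and 0.159. Neither ligase was called, nor were the costimulatory genes Cd80 and Cd86, and Cd40 did not reach the minimum.

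Genes that are no members were ranked by their likeness to Cd74, Pearson's r of log2(RPM + 1) over the 10 libraries, given as a description because libraries and groups are shared. The 8 most alike of 4145 tested genes were Gpr65, Fam32a, Plin2, Fxr1, Pirb, Cd93, Alox5ap and Snap23, with r of 0.95 for Gpr65 and 0.90 for Snap23. Plin2 encodes a coat protein of lipid droplets, Alox5ap a protein of leukotriene synthesis and Pirb an inhibitory receptor of myeloid cells. Among the members, H2-Ab1 had 0.97, H2-Aa 0.96 and H2-Eb1 0.93. Ciita had 0.68, H2-DMa 0.60, H2-Ob 0.29, H2-DMb2 0.19, H2-Oa -0.008 and H2-DMb1 -0.16. On the same measure the markers of other cells had 0.83 for Ccr2, 0.56 for Pf4 and 0.38 for Mrc1. The markers stood closer together for the other chains. H2-Aa had 0.76 with Ccr2, 0.65 with Pf4 and 0.54 with Mrc1. In the same order H2-Ab1 had 0.76, 0.63 and 0.55, and H2-Eb1 had 0.73, 0.71 and 0.58. For deviations from group means, again in that order, Cd74 had 0.90, 0.25 and 0.41, and H2-Aa had 0.65, 0.56 and 0.81. H2-Ab1 had 0.83, 0.38 and 0.67 there, and H2-Eb1 had 0.77, 0.52 and 0.68. These deviations come from groups of 2 or 3 libraries and were not tested. Gpr65, which encodes a proton-sensing receptor, was at 14.4, 10.2 and 17.4 RPM in aged libraries, against 4.41, 6.56 and 3.45 RPM in young libraries. It was at 13.9 and 13.7 RPM in the libraries labelled deltaMG, against 11.0 and 9.73 RPM in those labelled control.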

How the data were processed

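The authors purified microglia with magnetic beads, amplified their total RNA (NuGEN Ovation) and built Ion Xpress Plus Fragment libraries, per the labels' protocols. GRCm38, mm10 and FastQC appear in the submitters' processing notes. Aligner, counter, normalisation and strand setting: not given in the sources used here. The deposited values were taken as RPM, since most low values of a library were whole multiples of 1 step (0.101 to 0.164 RPM) above a constant of 1e-04 present in every cell. Between 94.2% and 94.6% of the values up to 500 reads lay within 0.05 of a whole read, and 98 of the 100 class II values did. No count model was used.

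Genes reaching 10 RPM in 2 of 10 libraries entered a limma 3.58.1 fit (R 4.3.3) of log2(RPM + 1) with 4 groups, 6 residual degrees of freedom and a prior variance that follows the mean. A gene was called at a Benjamini-Hochberg adjusted p under 0.05 over all genes tested. Members under that minimum were tested in the same way at 1 RPM. The fit was first tested on simulated data. Transcripts were compared with blastn 2.17.0, figures drawn with matplotlib 3.10.9 and exact tests run in scipy 1.17.1. The members, gene lists, box letters and alternatives were chosen with earlier results of these data known. Named genes were the members, Mrc1, Pf4, Ccr2, Rab7, Xist, list genes that were called or most abundant, and the 8 most like Cd74. Some that met this rule are given by count only, and others, such as March1, were named after their values were seen. Alternatives covered the filter, pseudocount, scaling, libraries fitted, replicate block, prior, covariates and leaving out each library.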

Additional observations from a re-analysis of the deposited data

How the results depend on the processing

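Of 608 class II log2 fold changes under an alternative, 565 kept their direction and side of the threshold, 12 fell short of it, 11 newly passed and 20 changed sign. Most of the 608 belong to changes that were not called, which could not fall short. Of the called ones, Cd74 in the libraries labelled deltaMG fell short in 9 of 21 alternatives. In aged libraries Cd74, H2-Aa and H2-Ab1 each did so in 1 of 21, with Ccr2 as covariate. Except where fewer libraries or genes were fitted, the cause was not tested. Calls over all genes in aged libraries numbered 255, and 119 with no filter, 121 with the 6 ageing libraries alone, 148 with Mrc1 and Pf4 and 28 with Ccr2 as covariate, and 96 (without young replicate 1) to 422 (without aged replicate 2) with 1 library left out. The split of 131 higher and 124 lower became 217 and 113 with equal totals and 217 and 128 with median-of-ratios rescaling. For the libraries labelled deltaMG the 157 calls became 86 with no filter, 510 with their 4 libraries alone, 70 with Mrc1 and Pf4, and 25 to 317 with 1 library left out. For the difference the 199 calls became 101 with no filter, 324 with Ccr2, and 71 to 264 with 1 left out. Class II calls in aged libraries were 0 with Ccr2. In the libraries labelled deltaMG they were 0 with no filter (Cd74 adjusted p = 0.140), a constant prior (0.0527) or either covariate, 2 with equal totals or median-of-ratios rescaling (H2-Aa added), 4 with those libraries alone, and 0 to 3 with 1 left out, 3 without aged replicate 2 or 3. For the difference they were 0 to 1.

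Same-numbered deviations from group means correlated at -0.39 to -0.14 in the ageing comparison, which gave no sign of pairing by replicate number. In the other comparison it was 0.12, but with 2 libraries per group deviations mirror each other, so this cannot decide pairing. With a replicate block limma called 140 genes in aged libraries, 96 in those labelled deltaMG and 0 class II genes in the comparison of labelled libraries, with Cd74 at an adjusted p of 0.0596.

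With Ccr2 as covariate, log2 changes in aged libraries turned to -0.49 for H2-Eb1, -0.28 for Ciita, -0.041 for H2-DMa, -0.014 for H2-Ob, -0.14 for Mrc1 and 0.28 for Ctsd, and Ciita turned to -0.30 in the libraries labelled deltaMG. With Mrc1 and Pf4, H2-DMb1 turned to -0.00148 and H2-Oa to -0.023 in aged libraries. The difference for H2-Eb1, -0.02, became 0.040 with a pseudocount of 0.1, 0.021 with equal totals and 0.16 with Mrc1 and Pf4. With 1 library left out the range in aged libraries was -0.16 to 0.14 for H2-DMb1, -0.26 to 0.31 for H2-Oa, -0.052 to 0.22 for Mrc1 and -0.31 to 0.015 for Ctsd. For Mrc1 it was -0.18 to 0.11 in the libraries labelled deltaMG. For the difference it was -0.38 to 0.39 for H2-Eb1, -0.023 to 0.61 for Ciita and -0.038 to 0.25 for Mrc1. Depth limits Ciita, H2-DMb2 and Pf4, each with a handful of reads in a library.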
